A study of Homo sapiens with 18 samples.

Results

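Sterol and fatty acid synthesis draw on the same cytosolic pool of acetyl-CoA. ACLY makes that acetyl-CoA from citrate and ACSS2 makes it from acetate. The mevalonate pathway then builds isoprenoids, squalene, lanosterol and cholesterol, while ACACA and FASN build saturated fatty acids that SCD desaturates and ELOVL6 elongates. FADS1 and FADS2 are desaturases that make long polyunsaturated fatty acids. Both branches are transcribed under the SREBP factors, which SREBF1 and SREBF2 encode, and INSIG1 holds the SREBP precursors in the endoplasmic reticulum when sterols are plentiful. The genes described here are 31 members of these pathways, found by gene name in both count tables, out of 58735 genes counted. They fall into 18 sterol enzymes, 4 genes of regulation and transport (SREBF1, SREBF2, INSIG1 and the cholesterol carrier STARD4) and 9 fatty acid genes (ACLY, ACSS2, ACACA, FASN, SCD, ELOVL6, FADS1, FADS2 and LPIN1). All 31 passed the filter on low counts in both tables.

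RNA was sequenced from A549 and H358, established human lung adenocarcinoma cell lines kept in the same serum-supplemented medium. RAD21 is part of cohesin, the ring-shaped complex that joins sister chromatids and shapes chromatin loops. The 6 groups, with 3 libraries each, were A549 and H358 carrying a lentiviral short hairpin RNA against RAD21 (shRAD21), A549 and H358 with an empty control vector (shNC), A549 overexpressing RAD21 (RAD21OE) and A549 with the empty vector (EV). The control cells are labelled wild type. Knockdown and overexpression are labelled as separate batches, so no level is compared between those experiments. The sources used here do not give whether the libraries of a group came from separate cultures, or whether a line was 1 clone. The p-values therefore reflect only library-to-library spread, which can be technical.

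The libraries held between 15155077 and 19277568 counts in the knockdown and between 13024640 and 14276335 in the overexpression. All 5 epithelial markers (EPCAM, KRT8, KRT18, KRT19 and CDH1) reached 1 CPM (the count scaled to the size of its library) in every group, and their summed level was 11266 to 13974 CPM in A549 shRAD21 against 7124 to 7547 CPM in A549 shNC. The lung lineage marker NKX2-1 stayed below 1 CPM in A549 and lay between 114 and 163 CPM in H358. The epithelial sum was 4603 to 4791 CPM in H358 shRAD21 against 4508 to 4812 CPM in H358 shNC, and 10375 to 13572 CPM in RAD21OE against 8233 to 8435 CPM in EV. Its part in the results was not tested. In A549 the sum lay mostly in KRT8 and KRT18 (4531 to 4798 and 2512 to 2670 CPM in shNC), with EPCAM at 3.19 to 4.28 CPM. The 5 markers did not move together. CDH1 stood at 46.8, 52.2 and 59.7 CPM in RAD21OE against 64.8, 78.1 and 61.3 CPM in EV. In H358 EPCAM was lower and CDH1 higher with shRAD21. Of 4 lung lineage markers 1 reached 1 CPM in A549 and 2 in H358. None of 3 leukocyte markers reached 1 CPM, and their sum was at most 0.636 CPM in any library. Of 3 endothelial markers none reached 1 CPM in A549 and 2 did in H358, with sums of at most 5.66 CPM, and the 4 fibroblast markers summed to 25.2 to 47.7 CPM. In 2 groups the replicate numbered 3 stood apart. The smallest median absolute log2 difference to another library of its group was 0.304 for A549 shRAD21 replicate 3 and 0.231 for RAD21OE replicate 3, against at most 0.129 in every other library. In these 2 libraries the deviation of genes from the group mean also rose with GC content (Spearman's rho across genes 0.586 and 0.672), whereas it fell with GC content in the other replicates of both groups (−0.567 to −0.379). The deviations of the 3 libraries of a group cancel for each gene, so these opposite signs are not separate observations.

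RAD21 itself followed the labels. It stood at 129, 132 and 101 CPM in A549 shRAD21 against 257, 253 and 255 CPM in A549 shNC, a log2 fold change of −1.08 (SE 0.08, edgeR adjusted p = 2.99e-08). In H358 it stood at 379, 427 and 433 CPM with shRAD21 against 569, 589 and 603 CPM with shNC (log2 fold change −0.51, SE 0.08, adjusted p = 0.000671). The knockdown was therefore shallower in H358, with 70.3% of the shNC level left in H358 and 47.4% in A549. RAD21OE cells held 1520, 1501 and 1306 CPM against 195, 209 and 194 CPM in EV cells (log2 fold change 2.85, SE 0.08, adjusted p = 2.9e-10). The groups did not overlap in any of the 3 comparisons, where an exact two-sided permutation test gives p = 0.1, the smallest it can give with 3 against 3.

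Promoters are shown for SREBF2, HMGCS1 and SCD, because SREBF2 alone held the sterol regulatory element searched for, HMGCS1 was called in all 3 RAD21 comparisons and SCD moved the same way in both knockdowns. Each is the 250 bases before the gene's RefSeq start on GRCh38.p14, written on the gene's strand from 5′ to 3′, at chr22:41832855-41833104 (plus strand) for SREBF2, chr5:43313413-43313662 (minus strand) for HMGCS1 and chr10:100346983-100347232 (plus strand) for SCD. Capitals mark the sterol regulatory element TCACNCCAC, which SREBP binds, and the CCAAT box, which NF-Y binds, on either strand.
SREBF2: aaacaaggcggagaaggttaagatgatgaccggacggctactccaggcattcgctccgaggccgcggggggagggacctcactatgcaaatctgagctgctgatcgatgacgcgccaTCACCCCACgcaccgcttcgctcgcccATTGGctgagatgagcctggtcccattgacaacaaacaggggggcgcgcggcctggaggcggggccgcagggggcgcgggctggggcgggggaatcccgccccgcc
HMGCS1: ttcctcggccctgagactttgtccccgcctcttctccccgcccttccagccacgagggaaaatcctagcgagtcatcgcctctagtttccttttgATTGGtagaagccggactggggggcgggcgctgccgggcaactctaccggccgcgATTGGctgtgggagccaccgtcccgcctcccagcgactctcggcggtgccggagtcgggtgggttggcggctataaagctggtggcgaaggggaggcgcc
SCD: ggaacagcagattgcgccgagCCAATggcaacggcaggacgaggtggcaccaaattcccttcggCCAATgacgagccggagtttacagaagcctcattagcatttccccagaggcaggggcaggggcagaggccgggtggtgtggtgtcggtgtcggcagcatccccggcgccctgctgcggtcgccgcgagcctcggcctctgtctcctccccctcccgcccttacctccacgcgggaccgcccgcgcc

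The SREBF2 element lay 133 to 125 bases before the start, with a reversed CCAAT box 106 to 102 bases before it. HMGCS1 held 2 reversed CCAAT boxes, 155 to 151 and 100 to 96 bases before its start, and SCD held 2 on the gene's strand, 229 to 225 and 186 to 182 bases before it. Of the 31 genes, 27 had a promoter in the RefSeq table. The letters of the sterol regulatory element occurred in 1 of the 27, against 0.875% of the promoters of 27305 genes searched in the same way on both strands. CCAAT occurred in 18 of the 27 (12 of 15 sterol enzymes, 3 of 4 regulators and 3 of 8 fatty acid genes), against 33.0% of all promoters. The Sp1 box GGGCGG occurred in 25 of the 27 against 42.3% of all promoters, and the E-box CACGTG in 2 of the 27 against 6.49%. The 4 motifs were counted separately, and a match or its absence describes only the letters of this window.

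RAD21 knockdown in A549 raised most of the 9 fatty acid genes and a subset of the sterol enzymes. In all, 13 of the 31 genes rose, where 14.4% of the 18939 genes tested rose, and 1 fell, where 10.9% of all genes fell (25.2% in either direction). The ranges of the groups did not overlap for 13 of the 31 genes, against 32.7% of all genes. Of the 9 fatty acid genes 6 rose (ACLY, ACACA, ELOVL6, FADS1, FADS2 and LPIN1) and SCD fell. Of the 18 sterol enzymes 5 rose (HMGCS1, IDI1, MSMO1, HSD17B7 and DHCR7) and none fell (1 at an unadjusted p under 0.05, and 0 by DESeq2's Wald test or limma-voom), and 2 of the 4 genes of regulation and transport rose (INSIG1 and STARD4). A gene is called risen or fallen at a Benjamini-Hochberg adjusted p under 0.05 over all genes tested, in edgeR's quasi-likelihood test.

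ELOVL6 extends palmitate by a pair of carbons, and it had the largest rise of the 31 genes in A549. It stood at 55.0, 56.2 and 45.6 CPM in shRAD21 cells against 28.0, 24.6 and 24.9 CPM in shNC cells, a log2 fold change of 1.01 (SE 0.09, adjusted p = 1.4e-07). Every shRAD21 library lay above every shNC library. FADS1 and FADS2 are the desaturases that make long polyunsaturated fatty acids, and they lie in opposite orientation on chromosome 11 (GRCh38, chr11:61799625-61829318 and chr11:61792980-61867354) with 4.79% of the FADS1 exons and 4.44% of the FADS2 exons under the other gene. FADS1 stood at 462, 455 and 487 CPM in shRAD21 cells against 277, 280 and 293 CPM in shNC cells (log2 fold change 0.73, SE 0.06, adjusted p = 3.81e-08). FADS2 stood at 358.3, 353 and 420 CPM in shRAD21 cells against 252, 253 and 258 CPM in shNC cells (log2 fold change 0.57, SE 0.07, adjusted p = 6.54e-06). Neither gene's groups overlapped.

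ACACA and ACLY also rose, and FASN and ACSS2 were not called. ACACA, the carboxylase that commits acetyl-CoA to fatty acids, stood at 251, 250 and 245 CPM in shRAD21 cells against 192, 192 and 200 CPM in shNC cells (log2 fold change 0.35, SE 0.06, adjusted p = 0.000122). ACLY averaged 1300 ± 120 CPM in shRAD21 cells and 1007 ± 40.2 CPM in shNC cells (SD, n = 3 each), a log2 fold change of 0.37 (SE 0.06, adjusted p = 0.000236 by edgeR). FASN, which carries out the synthesis itself, averaged 906 ± 158 CPM in shRAD21 cells and 893 ± 28.9 CPM in shNC cells, with a log2 fold change of 0.02 (95% interval −0.15 to 0.19). Its 3 shRAD21 values were 798, 833 and 1087 CPM, and the last of these is the library that stood apart. ACSS2 had a log2 fold change of −0.13 (SE 0.09, adjusted p = 0.31).

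SCD places the first double bond in saturated fatty acids, and it fell where ELOVL6, FADS1 and FADS2 rose. It stood at 680, 652 and 544 CPM in shRAD21 cells against 833, 872 and 914 CPM in shNC cells, which left 71.6% of the shNC level (log2 fold change −0.48, SE 0.07, adjusted p = 5.99e-05). The groups did not overlap. LPIN1, a phosphatidate phosphatase of glycerolipid synthesis, stood at 58.2, 54.9 and 47.0 CPM in shRAD21 cells against 40.5, 48.4 and 45.1 CPM in shNC cells (log2 fold change 0.26, SE 0.09, adjusted p = 0.0479). The groups overlapped for LPIN1, whose call was lost in 11 of 15 alternative settings, with adjusted p up to 0.226.

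STARD4, a soluble carrier of cholesterol between membranes (GRCh38, chr5:111496033-111512590), had the largest rise outside the fatty acid genes. It stood at 25.8, 20.8 and 15.3 CPM in shRAD21 cells against 11.96, 10.97 and 9.64 CPM in shNC cells (log2 fold change 0.93, SE 0.15, adjusted p = 0.000158). INSIG1 stood at 46.6, 41.8 and 33.3 CPM in shRAD21 cells against 28.7, 26.2 and 29.4 CPM in shNC cells (log2 fold change 0.53, SE 0.10, adjusted p = 0.000694). Neither gene's groups overlapped, and in each the shRAD21 library that stood apart was the lowest of its group. The genes of the SREBP factors were not called. SREBF1 stood at 397, 399 and 477 CPM in shRAD21 cells against 382, 404 and 406 CPM in shNC cells (log2 fold change 0.10, SE 0.07), and SREBF2 had a log2 fold change of 0.02 (95% interval −0.11 to 0.14).

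The 5 sterol enzymes that rose are spread along the pathway, and ACAT2, the cytosolic thiolase that starts it, was not among them (log2 fold change −0.12). HMGCS1, which makes HMG-CoA, stood at 152, 146 and 131 CPM in shRAD21 cells against 114, 104 and 105 CPM in shNC cells (log2 fold change 0.41, SE 0.07, adjusted p = 0.000226). IDI1, which isomerises isopentenyl diphosphate, stood at 67.4, 69.0 and 53.2 CPM in shRAD21 cells against 46.5, 41.0 and 44.4 CPM in shNC cells (log2 fold change 0.52, SE 0.09, adjusted p = 0.000353). The shRAD21 libraries lay above the shNC libraries for both genes. MSMO1, the sterol methyl oxidase, stood at 49.2, 48.2 and 32.4 CPM in shRAD21 cells against 26.96, 32.5 and 31.2 CPM in shNC cells (log2 fold change 0.52, SE 0.13, adjusted p = 0.00513). Here the library that stood apart fell within the shNC range. The call on MSMO1 was lost only when the 6 A549 libraries were fitted alone, with adjusted p = 0.0511.

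HSD17B7, a sterol keto reductase, stood at 15.2, 13.6 and 12.3 CPM in shRAD21 cells against 10.2, 10.4 and 9.42 CPM in shNC cells (log2 fold change 0.45, SE 0.12, adjusted p = 0.00846). The call was lost without shRAD21 replicate 1 and with GC and length offsets plus the replicate block, with adjusted p up to 0.0535. Its pseudogene HSD17B7P2 took counts equal to 16.4% of those of HSD17B7 in the knockdown table, so reads may have been split between these near copies. DHCR7, a reductase of the last steps to cholesterol, averaged 94.8 ± 9.89 CPM in shRAD21 cells and 81.3 ± 3.33 CPM in shNC cells (SD, n = 3 each), and its log2 fold change of 0.22 (SE 0.08, edgeR adjusted p = 0.0392) was lost in 6 of 15 settings. The other 13 sterol enzymes had log2 fold changes between −0.39 (TM7SF2) and 0.13 (LSS). These include the steps from MVK, PMVK and MVD through FDPS, FDFT1, SQLE and LSS to CYP51A1. With GC and length offsets MVK (0.25, edgeR adjusted p = 0.0376) and LSS (0.24, adjusted p = 0.0299) were called higher.

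For 5 genes, 4 sterol enzymes and FASN, the result depended on the library that stood apart. PMVK, which phosphorylates phosphomevalonate, stood at 12.2, 13.02 and 30.7 CPM in shRAD21 cells against 22.2, 21.8 and 21.4 CPM in shNC cells, and MVD, the next enzyme, stood at 17.6, 17.5 and 30.2 CPM against 25.7, 26.96 and 24.8 CPM. In both genes replicates 1 and 2 lay below all shNC libraries and replicate 3 above them. Without replicate 3 the genes that fell numbered 6, namely SCD, PMVK (log2 fold change −0.79), MVD (−0.56), TM7SF2 (−0.71), EBP (−0.18) and FASN (−0.13). The share of all genes that fell in this run is not given here. The number of all genes called also varied with the library left out. The 5 genes other than SCD have transcripts of 53.5% to 65.3% GC. With offsets that take out the trend on GC content and on exon length in every library, PMVK had a log2 fold change of −0.05, MVD −0.05 and FASN 0.22 (adjusted p = 5.98e-05).

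**Figure D1:**
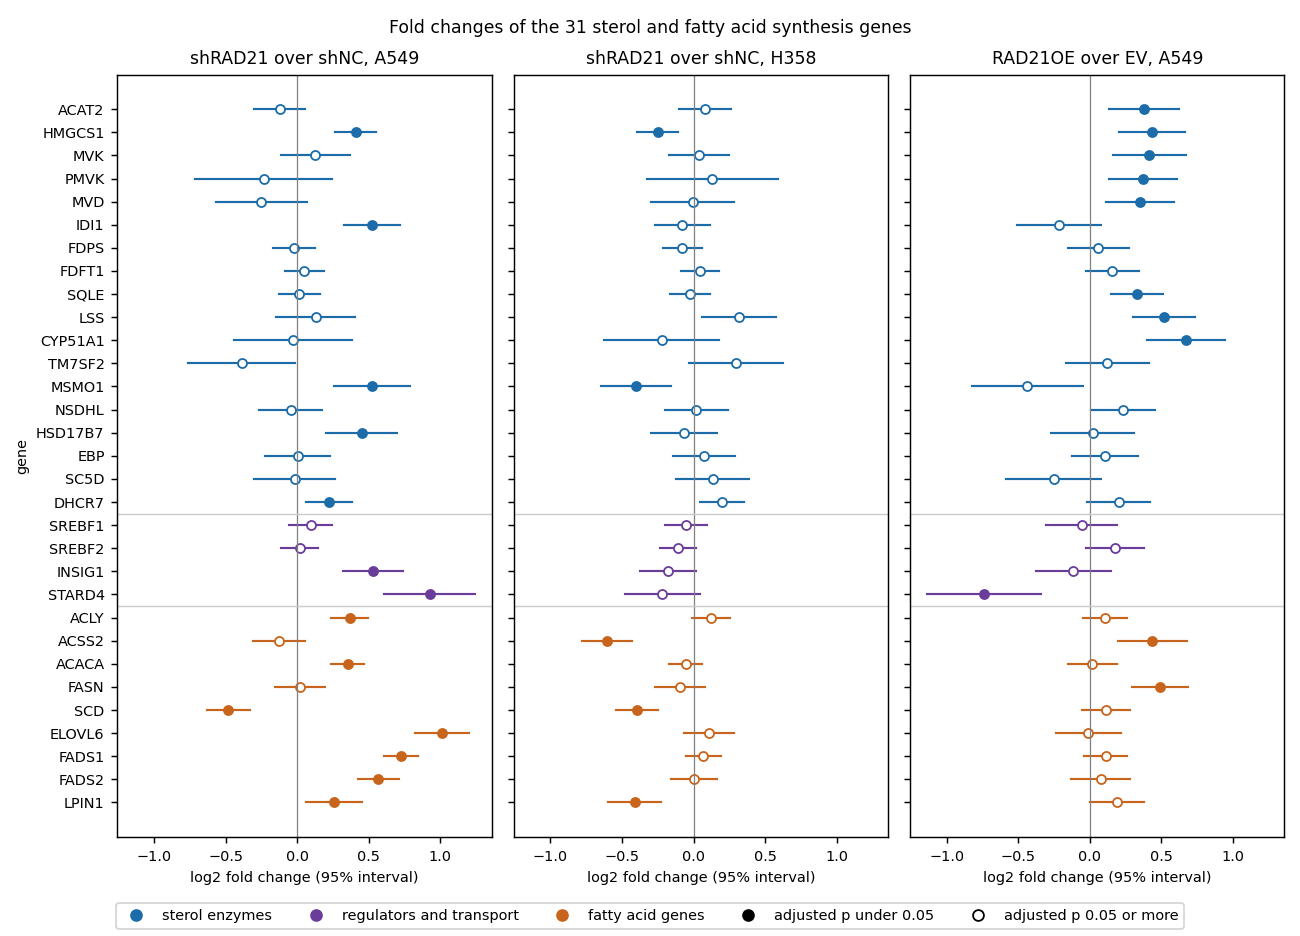
Log2 fold change of each of the 31 genes with its 95% interval (horizontal axis), by gene (vertical axis, sterol enzymes above, then regulators and transport, then fatty acid genes), in the 3 comparisons. Filled points have an adjusted p under 0.05: 13 genes higher and 1 lower in A549 knockdown, 5 lower in H358 knockdown, and 10 higher and 1 lower in overexpression.

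Knockdown in H358 lowered a few of these genes by the same test and gave no call in the other direction. The 5 that fell, where 4.62% of the 18939 genes tested fell, were ACSS2, SCD, LPIN1, HMGCS1 and MSMO1, and no member rose, where 3.78% of all genes rose (8.4% in either direction). By class the genes that fell were 2 of 18 sterol enzymes, 0 of 4 genes of regulation and transport and 3 of 9 fatty acid genes. At an unadjusted p under 0.05 there were 2 higher members, and by DESeq2's Wald test or limma-voom 0. The 6 H358 libraries fitted alone gave 4 higher (LSS, TM7SF2, DHCR7 and ACLY) and 9 lower members, and GC and length offsets gave 2 higher (LSS and ELOVL6) and 7 lower. Both of these runs also called more of all genes than the main fit, so the shares above do not apply to them. For 19 of the 31 genes the groups did not overlap, against 36.1% of all genes. At 1 library fewer the number that fell was 2 to 4. It was 3 without shNC replicate 1 or 3 or without shRAD21 replicate 1 or 2, and 2 without shRAD21 replicate 3. Fewer of all genes were also called in these runs than with all libraries.

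ACSS2, which turns acetate into acetyl-CoA, had the largest fall in H358. It stood at 27.5, 30.4 and 27.03 CPM in shRAD21 cells against 46.2, 42.1 and 41.1 CPM in shNC cells, or 65.6% of the shNC level (log2 fold change −0.61, SE 0.08, adjusted p = 0.000153). SCD stood at 1062, 1060 and 971 CPM in shRAD21 cells against 1362, 1341 and 1361 CPM in shNC cells (log2 fold change −0.39, SE 0.07, adjusted p = 0.00172). Both genes' groups were well apart, and both calls held in all 15 alternative settings. SCD was the only member with the same call in both knockdowns, for which the share of all genes is not given here.

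LPIN1 stood at 67.4, 70.1 and 60.6 CPM in H358 shRAD21 cells against 87.3, 85.8 and 90.1 CPM in shNC cells (log2 fold change −0.41, SE 0.09, adjusted p = 0.00697). MSMO1 stood at 101, 98.7 and 95.2 CPM in shRAD21 cells against 138, 117 and 135 CPM in shNC cells (log2 fold change −0.40, SE 0.11, adjusted p = 0.0369). HMGCS1 stood at 121, 124 and 122 CPM in shRAD21 cells against 140, 143 and 152 CPM in shNC cells (log2 fold change −0.25, SE 0.07, adjusted p = 0.0291). The groups did not overlap for any of these 3 genes. The calls on HMGCS1 and MSMO1 were nevertheless lost in 7 and 6 of 15 settings, HMGCS1 whenever any library of H358 was left out, with adjusted p up to 0.121 and 0.152. LPIN1 lost its call when shRAD21 replicate 3 was left out (adjusted p = 0.0576).

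The genes of regulation and transport all lay lower in H358 shRAD21 cells without a call. INSIG1 stood at 69.7, 69.7 and 66.6 CPM in shRAD21 cells against 78.3, 77.1 and 77.6 CPM in shNC cells (log2 fold change −0.18, SE 0.09, adjusted p = 0.27). STARD4 stood at 48.7, 51.5 and 47.7 CPM in shRAD21 cells against 52.9, 55.9 and 63.1 CPM in shNC cells (log2 fold change −0.22, SE 0.13, adjusted p = 0.33). SREBF2 stood at 354, 348 and 344 CPM in shRAD21 cells against 383, 376 and 368 CPM in shNC cells (log2 fold change −0.11, SE 0.06, adjusted p = 0.3). None of these 3 genes had overlapping groups, and each was called lower when the 6 H358 libraries were fitted alone. DHCR7 stood at 163, 167 and 161 CPM in shRAD21 cells against 149, 136 and 143 CPM in shNC cells (log2 fold change 0.20, SE 0.07, adjusted p = 0.102).

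The elongation and desaturation genes that rose in A549 were not called in H358, although ELOVL6 was called higher with GC and length offsets (adjusted p = 0.0415). ELOVL6 had a log2 fold change of 0.11 (95% interval −0.07 to 0.28), FADS1 of 0.07 (−0.06 to 0.19) and FADS2 of 0.00 (−0.16 to 0.17). The remaining uncalled members lay between −0.22 (CYP51A1) and 0.32 (LSS). LSS, which closes the sterol rings, stood at 111, 108 and 105 CPM in shRAD21 cells against 88.2, 88.1 and 82.3 CPM in shNC cells (adjusted p = 0.122) and was called higher in 4 of 15 settings.

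**Figure D2:**
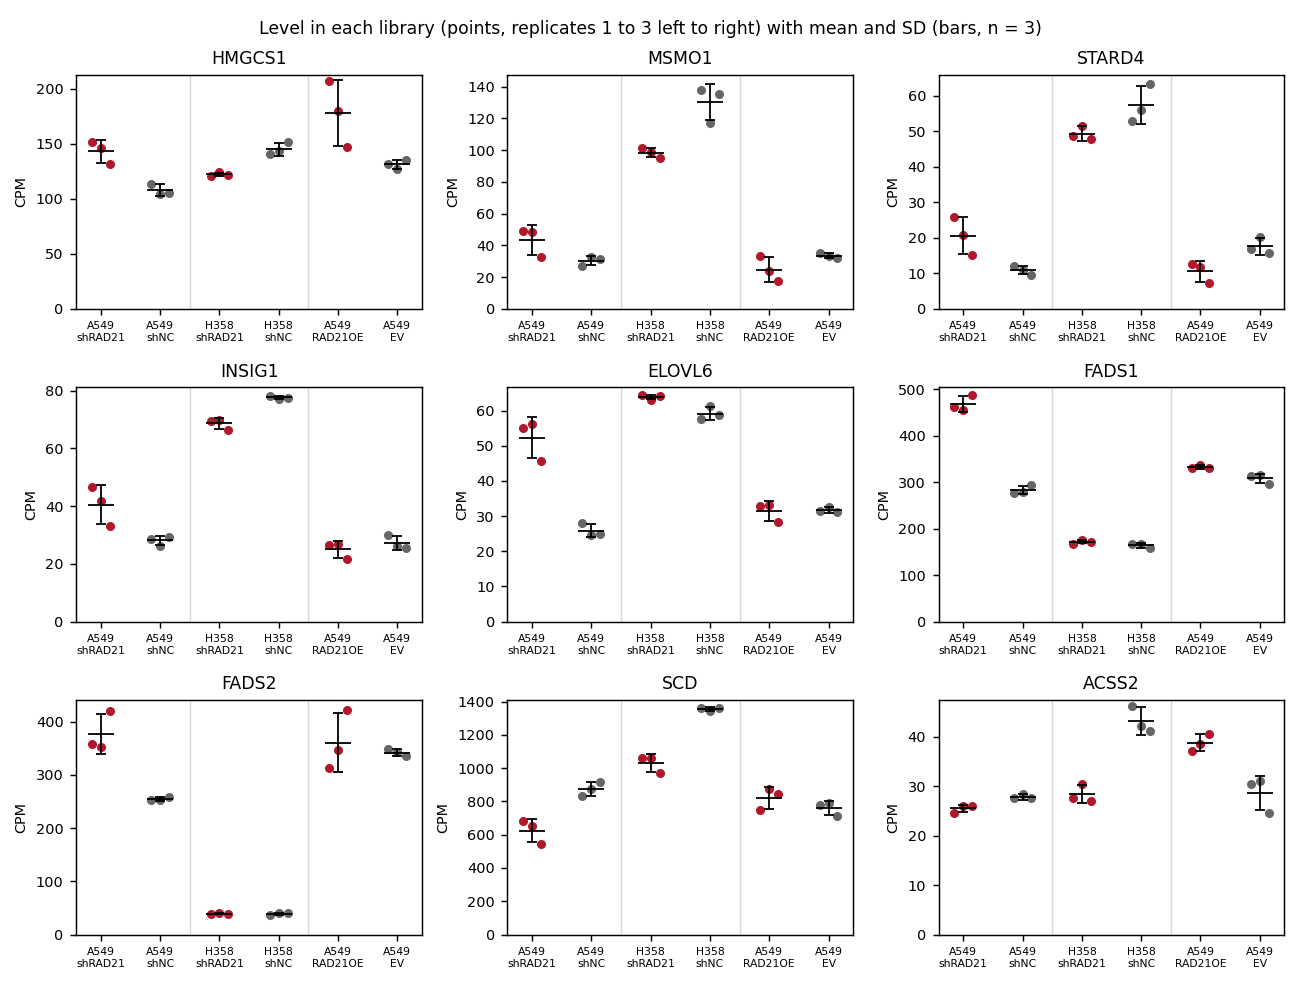
CPM (vertical axis) of 9 members in each of the 18 libraries, with the mean and SD of each group (n = 3). ELOVL6, FADS1 and FADS2 are separated between shRAD21 and shNC in A549 and lie close together in H358, while SCD lies lower with shRAD21 in both lines.

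Whether the response to knockdown differed between the lines was tested as a contrast in the same fit, the H358 fold change minus the A549 fold change. It was called for 12 of the 31 genes, all with the lower response in H358, meaning the lower signed fold change. A lower response in this sense need not be a weaker one, since ACSS2 fell further in H358 (−0.61 against −0.13 in A549). Of all genes tested, 9.94% had a lower and 7.61% a higher response in H358 (17.6% either). The 12 were 6 of 9 fatty acid genes, 4 of 18 sterol enzymes and 2 of 4 genes of regulation and transport. TM7SF2 was called with a higher response in H358 by DESeq2's Wald test and limma-voom, which edgeR did not call (adjusted p = 0.0547). The knockdown was itself shallower in H358, by 0.57 on the log2 scale (SE 0.12, adjusted p = 0.00228), and the part of that in these differences was not tested.

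STARD4, MSMO1 and ELOVL6 had the largest differences among the 31 genes. STARD4 differed by −1.14 (SE 0.20, adjusted p = 0.000553), ELOVL6 by −0.90 (SE 0.12, adjusted p = 5.11e-05) and FADS1 by −0.66 (SE 0.08, adjusted p = 2e-05). These 3 genes rose in A549 and had no call in H358. MSMO1 differed by −0.92 (SE 0.17, adjusted p = 0.00107), HMGCS1 by −0.66 (SE 0.10, adjusted p = 0.000125) and LPIN1 by −0.67 (SE 0.13, adjusted p = 0.00139). These 3 were called higher in A549 and lower in H358, and they are the only members with opposite calls in the 2 knockdowns. The share of all genes with opposite calls there is not given here, so this count is not set against it. None of the 3 calls in H358 held in all 15 settings. In A549 the call on LPIN1 was lost in 11 of 15 settings and that on MSMO1 in 1, and both genes had overlapping groups there. ACSS2 differed by −0.48 (SE 0.12, adjusted p = 0.00955), with its call in H358 alone.

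The other 5 were INSIG1 (−0.71), IDI1 (−0.60), FADS2 (−0.57), HSD17B7 (−0.52) and ACACA (−0.41). The call on HSD17B7 was lost in 14 of 20 alternative settings and those on the other 11 in none. SCD, which fell in both lines, differed by 0.09 (95% interval −0.12 to 0.30). Without A549 shRAD21 replicate 3, 5 genes (PMVK, MVD, LSS, TM7SF2 and EBP) were called with a higher response in H358, where none was with all 12 libraries. The share of all genes called in this direction in that run is not given here.

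**Figure D3:**
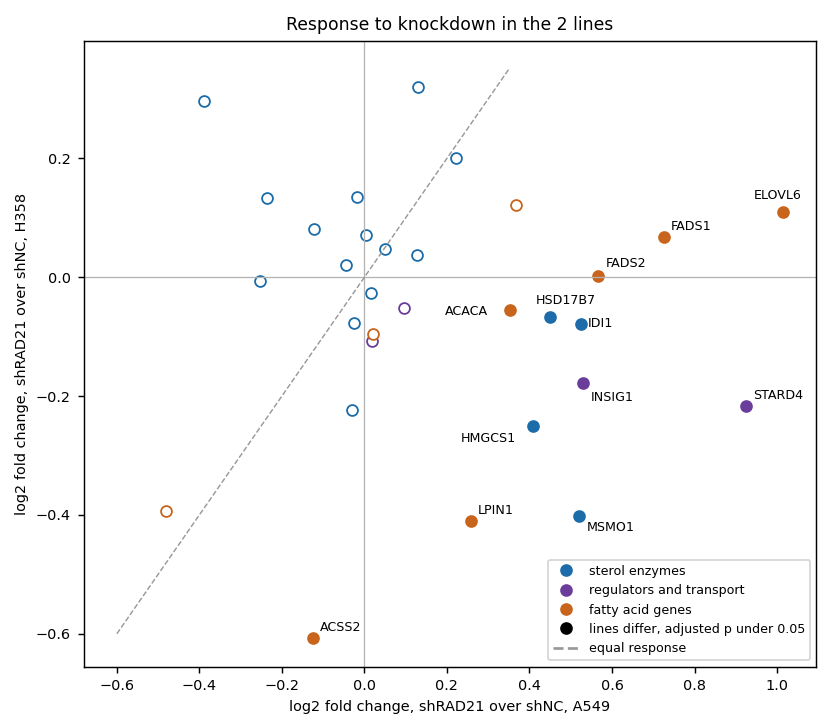
Log2 fold change of shRAD21 over shNC in A549 (horizontal axis) and in H358 (vertical axis) for the 31 genes, with the dashed line at an equal response. The 12 filled, named genes, from STARD4 at −1.14 to ACACA at −0.41, lie below the line.

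RAD21 overexpression in A549 raised 8 of the 18 sterol enzymes and 2 of the 9 fatty acid genes. The medians of these classes differed beyond the spread of the EV libraries only in RAD21OE replicate 3, which stood apart. In all, 10 of the 31 genes rose, where 14.1% of the 15462 genes tested rose, and 1 fell, where 13.7% of all genes fell (27.8% in either direction). For 16 of the 31 genes the groups did not overlap, against 45.4% of all genes. Of the 18 sterol enzymes 8 rose (ACAT2, HMGCS1, MVK, PMVK, MVD, SQLE, LSS and CYP51A1). These include steps of the mevalonate pathway and the formation and first demethylation of lanosterol. Of the 9 fatty acid genes ACSS2 and FASN rose, and STARD4 fell. Leaving out EV replicate 1, 2 or 3 reduced the number that rose to 6, 4 and 4, and STARD4 was not called without EV replicate 2 (adjusted p = 0.0671). The number of all genes called also varied with the library left out.

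CYP51A1, the lanosterol demethylase, stood at 14.2, 14.1 and 13.97 CPM in RAD21OE cells against 9.499, 8.42 and 8.59 CPM in EV cells (log2 fold change 0.67, SE 0.13, adjusted p = 0.00216). Other annotated genes on the same strand cover 79.3% of its exons, so its counts depend on how shared reads were assigned. LSS stood at 56.3, 56.7 and 68.8 CPM in RAD21OE cells against 42.4, 42.9 and 41.6 CPM in EV cells (log2 fold change 0.52, SE 0.10, adjusted p = 0.00263). HMGCS1 stood at 207, 179 and 147 CPM in RAD21OE cells against 131, 127 and 135 CPM in EV cells (log2 fold change 0.44, SE 0.11, adjusted p = 0.00983). The call on HMGCS1 was lost without EV replicate 2 (adjusted p = 0.0549). The groups did not overlap for any of the 3, and the RAD21OE library that stood apart was the highest of its group for LSS and the lowest for HMGCS1.

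The other 5 sterol enzymes rose by 0.33 to 0.42 on the log2 scale. MVK, mevalonate kinase, averaged 24.1 ± 2.36 CPM in RAD21OE cells and 18.1 ± 1.05 CPM in EV cells (SD, n = 3 each), and SQLE, squalene epoxidase, averaged 93.7 ± 3.80 CPM and 74.5 ± 4.38 CPM. PMVK averaged 33.7 ± 3.04 CPM in RAD21OE cells against 26.0 ± 1.43 CPM in EV cells, and MVD 37.3 ± 4.55 CPM against 29.2 ± 0.118 CPM. ACAT2 averaged 37.3 ± 3.82 CPM in RAD21OE cells against 28.7 ± 2.33 CPM in EV cells, and 52.3% of its exons lie under genes of the opposite strand, among them SOD2 and TCP1. Adjusted p for these 5 lay between 0.012 (SQLE) and 0.0309 (MVD), and each call was lost in 3 or 4 of 14 settings.

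FASN rose with overexpression, at 815, 890 and 1050 CPM in RAD21OE cells against 673, 615 and 676 CPM in EV cells (log2 fold change 0.49, SE 0.09, adjusted p = 0.00198). It was not called in either knockdown in the main fit. In H358 knockdown its groups did not overlap, and it was called lower in 3 of 15 settings. With GC and length offsets in edgeR it was lower in H358 (−0.18, adjusted p = 0.00141) and higher in A549 knockdown (0.22, adjusted p = 5.98e-05). ACSS2 stood at 37.2, 38.5 and 40.6 CPM in RAD21OE cells against 30.3, 30.9 and 24.6 CPM in EV cells (log2 fold change 0.44, SE 0.11, adjusted p = 0.0124), a call lost without EV replicate 3 (adjusted p = 0.0771). Neither gene's RAD21OE and EV groups overlapped. LPIN1 stood at 70.3, 71.6 and 64.1 CPM in RAD21OE cells against 60.3, 59.1 and 61.3 CPM in EV cells (log2 fold change 0.19, SE 0.09, adjusted p = 0.119). Without RAD21OE replicate 3 it was called higher (adjusted p = 0.00738).

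STARD4 stood at 12.6, 11.8 and 7.204 CPM in RAD21OE cells against 16.9, 20.2 and 15.6 CPM in EV cells (log2 fold change −0.74, SE 0.18, adjusted p = 0.0106). All RAD21OE libraries lay below all EV libraries. With GC and length offsets its log2 fold change was −0.36 (adjusted p = 0.0218), and STARD4 has the lowest GC content of the 31 genes, at 34.2%. INSIG1 stood at 26.7, 26.9 and 21.8 CPM in RAD21OE cells against 29.9, 26.3 and 25.5 CPM in EV cells (log2 fold change −0.12, SE 0.12), with overlapping groups. SREBF2 stood at 128, 132 and 159 CPM in RAD21OE cells against 118, 130 and 122 CPM in EV cells (log2 fold change 0.18, SE 0.09, adjusted p = 0.174). The uncalled members otherwise ranged from −0.44 (MSMO1) to 0.23 (NSDHL).

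MSMO1 stood at 33.3, 23.7 and 17.2 CPM in RAD21OE cells against 35.4, 33.4 and 31.8 CPM in EV cells, with adjusted p = 0.0854, and was called lower in 3 of 14 settings. FADS1, FADS2 and ELOVL6, which rose with knockdown in A549, had log2 fold changes with overexpression of 0.11 (95% interval −0.04 to 0.26), 0.07 (−0.13 to 0.28) and −0.01 (−0.24 to 0.22).

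Set side by side, 6 of the 31 members were called in at least 2 of the 3 comparisons, against 14.6% of the 15306 genes tested in both tables. HMGCS1 was the only member called in all 3 (1.76% of all genes were), higher in A549 shRAD21, lower in H358 shRAD21 and higher in RAD21OE. Its calls in H358 and in RAD21OE were each lost in some settings, as given above. MSMO1, STARD4, ACSS2, SCD and LPIN1 were called in 2. STARD4 was the only member with opposite calls in A549, higher with shRAD21 and lower with RAD21OE, and HMGCS1 the only one higher with both. ACSS2 and HMGCS1 had opposite calls between H358 shRAD21 (lower) and RAD21OE (higher). The shares of all genes with the same or opposite calls in 2 comparisons are not given here, so these members are not set against them. FDPS, FDFT1, TM7SF2, NSDHL, EBP, SC5D, SREBF1 and SREBF2 were called in none, 8 of the 31 genes, against 49.5% of all genes. Both genes of the SREBP factors are thus among the members without a call, although with GC and length offsets SREBF1 was called higher in A549 shRAD21 (log2 fold change 0.28, adjusted p = 2.84e-05) and lower in RAD21OE (−0.18, adjusted p = 0.04).

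The sterol and fatty acid classes separated in A549 knockdown, least in the library that stood apart, and lay closer in the other comparisons. In A549 shRAD21 cells the median log2 fold change was 0.01 over the 18 sterol enzymes, 0.31 over the 4 genes of regulation and transport and 0.35 over the 9 fatty acid genes, against 0.00 over all genes tested. With RAD21OE the medians were 0.22, −0.09 and 0.11, against −0.01 over all genes. In H358 shRAD21 cells they were 0.03, −0.14 and −0.05, against 0.00 over all genes. These are counts and medians of a chosen list, and no test was made over it.

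By library, the median of the fatty acid genes lay 0.37, 0.30 and 0.33 above its shNC mean in the 3 A549 shRAD21 libraries, where the 3 shNC libraries lay between −0.02 and 0.02. The sterol enzymes lay at −0.04, 0.01 and 0.25 in the same shRAD21 libraries, against −0.04 to 0.03 in the shNC libraries. The shift of the fatty acid genes was thus alike in the 3 libraries, and that of the sterol enzymes was seen in the library that stood apart. The sterol median minus the fatty acid median was −0.40, −0.28 and −0.08 in A549 shRAD21 replicates 1, 2 and 3. It lay between −0.06 and 0.05 in the shNC libraries. With RAD21OE the sterol enzymes lay at 0.09, 0.15 and 0.33 and the fatty acid genes at 0.07, 0.13 and 0.15, with the EV libraries between −0.03 and 0.03 for both classes. The sterol enzymes lay farthest up in RAD21OE replicate 3, which also stood apart. The sterol median minus the fatty acid median was 0.03, 0.02 and 0.17 in RAD21OE replicates 1, 2 and 3, against −0.06 to 0.04 in the EV libraries.

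**Figure D4:**
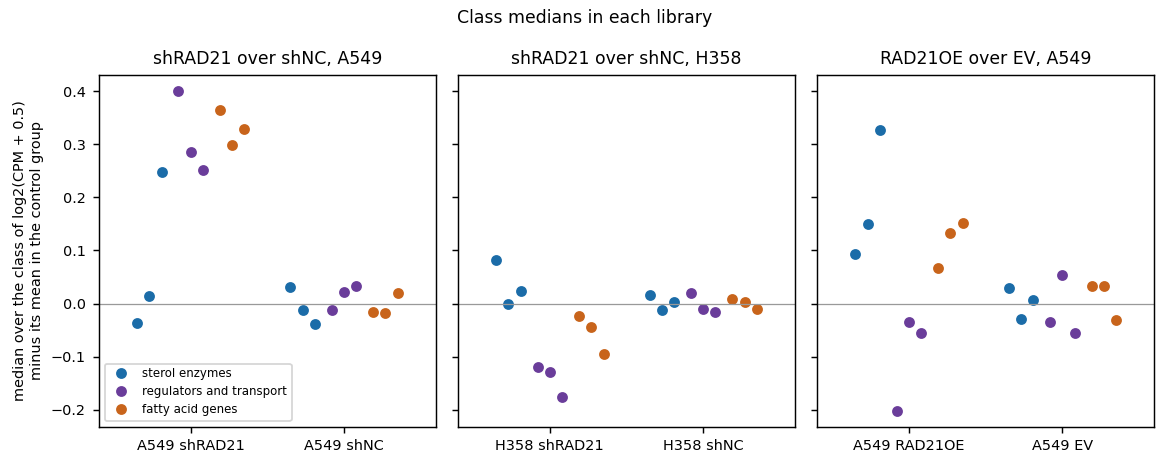
Median over each class of log2(CPM + 0.5) minus its mean in the control group (vertical axis), for each library of the 3 comparisons. In A549 shRAD21 cells the fatty acid genes lie at 0.37, 0.30 and 0.33 and the sterol enzymes at −0.04, 0.01 and 0.25.

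The 31 fold changes moved with the GC content of the longest transcript, with Spearman's rho of −0.43 in A549 knockdown, 0.39 in H358 knockdown and 0.44 in overexpression over the 31 genes, which share libraries. The classes themselves did not differ much in GC content, with medians of 50.3% for the sterol enzymes, 51.5% for regulation and transport and 50.1% for the fatty acid genes. Of the sterol enzymes that rose in A549 knockdown, HMGCS1, IDI1, MSMO1 and HSD17B7 lay between 38.1% and 41.7% GC, and DHCR7 at 58.3%. With the offsets for GC content and length, HMGCS1 had a log2 fold change of 0.24 (adjusted p = 0.000296), IDI1 of 0.36 (4.05e-05), MSMO1 of 0.36 (0.00232) and HSD17B7 of 0.29 (0.0419). ELOVL6, FADS1 and FADS2 had 0.83, 0.67 and 0.69 under the same offsets. These 7 kept their calls under these offsets, with smaller fold changes in all but FADS2. HSD17B7 lost its call with the replicate block added. Among the other members that rose in A549 knockdown, the offsets raised DHCR7 from 0.22 to 0.37 (edgeR adjusted p = 4.3e-06). ACLY went from 0.37 to 0.38 (1.29e-07). INSIG1, STARD4 and ACACA kept their calls with smaller fold changes, at 0.43, 0.71 and 0.27. LPIN1 lost its call (0.14, adjusted p = 0.161).

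**Figure D5:**
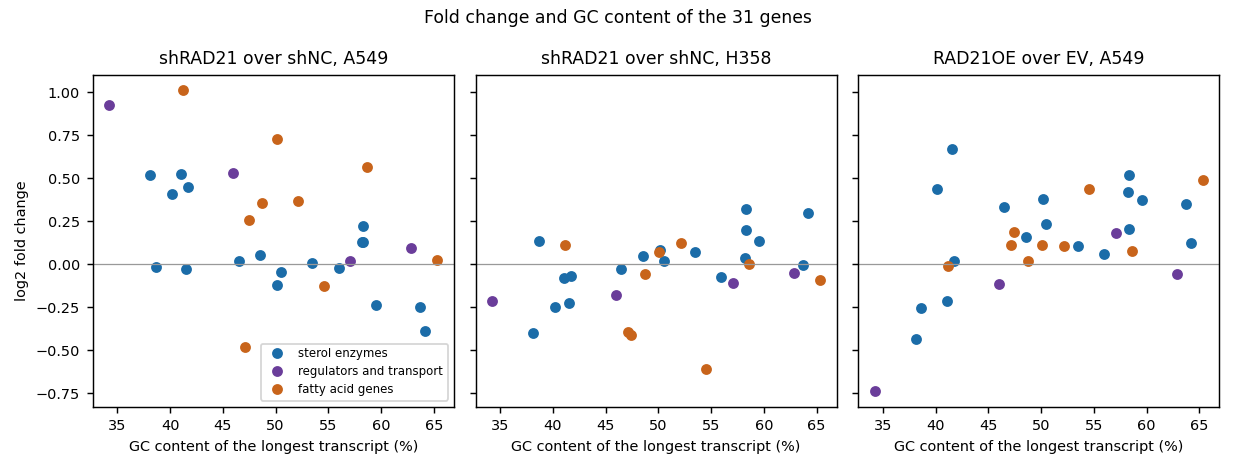
Log2 fold change (vertical axis) against the GC content of the longest annotated transcript in percent (horizontal axis) for the 31 genes, by class, in the 3 comparisons. The points fall from left to right in A549 knockdown (rho −0.43) and rise in H358 knockdown (0.39) and overexpression (0.44).

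In control cells the lines already differed in most of these genes. In H358 shNC against A549 shNC cells 24 of the 31 genes were higher, where 39.1% of all genes tested were higher, and 5 were lower, where 36.8% were (76% in either direction). In 29 of the 31 genes the groups did not overlap, against 81% of all genes. These libraries also serve as the controls of the knockdowns. FASN averaged 4928 ± 80.0 CPM in H358 and 893 ± 28.9 CPM in A549 (SD, n = 3 each), a log2 difference of 2.47 (SE 0.09). STARD4 averaged 57.3 ± 5.25 CPM in H358 and 10.9 ± 1.16 CPM in A549 (log2 difference 2.40, SE 0.14), MSMO1 130 ± 11.3 CPM and 30.2 ± 2.90 CPM (2.11, SE 0.12), and SREBF2 376 ± 7.66 CPM and 126 ± 5.999 CPM (1.58, SE 0.06). FADS2 went the other way, at 39.1 ± 1.91 CPM in H358 and 255 ± 3.16 CPM in A549 (log2 difference −2.70, SE 0.08), as did ACLY, FADS1, ACAT2 and NSDHL. PMVK and CYP51A1 were not called.

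Per kilobase of exon, FASN led in H358 shNC cells at 526 ± 8.54 CPM per kilobase, ahead of SCD at 253 ± 2.17, SREBF1 at 94.0 ± 4.52 and ACLY at 62.2 ± 0.0965. The order in A549 shNC cells was ACLY at 193 ± 7.71, SCD at 163 ± 7.55, FASN at 95.3 ± 3.09 and SREBF1 at 49.5 ± 1.63. The steps between these 4 levels exceed their SDs in both lines. At the low end in A549 were MVK at 2.48 ± 0.286, HSD17B7 at 2.10 ± 0.111, CYP51A1 at 2.06 ± 0.453 and STARD4 at 1.91 ± 0.205, which lie within their SDs of each other from HSD17B7 down. Of the genes that rose with A549 knockdown, FADS1, FADS2 and ACLY were higher in A549 than in H358 to begin with. The others were all lower in A549 (STARD4, INSIG1, ELOVL6, MSMO1, HMGCS1, IDI1, HSD17B7, DHCR7, ACACA and LPIN1), as were 24 of the 31 members. IDI1 lost this call with GC and length offsets.

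Related genes outside the 31 were read out from lists of the same pathways. Over all genes tested, 14.4% rose and 10.9% fell in A549 shRAD21 cells, and 3.78% rose and 4.62% fell in H358 shRAD21 cells. In RAD21OE cells 14.1% rose and 13.7% fell. The counts of each list stand beside these shares, and a short list without a call in H358 does not stand out from all genes. Of 8 genes of cholesterol efflux and the LXR receptors, 4 fell and 1 rose in A549 shRAD21 cells, 4 fell and 1 rose in RAD21OE cells, and none was called in H358, where none had an unadjusted p under 0.05 either. In that order, the median log2 fold changes were −0.20, −0.30 and −0.03. ABCA1, an LXR target that exports cholesterol to apolipoproteins, stood at 11.1, 12.3 and 9.88 CPM in A549 shRAD21 cells against 44.5, 45.8 and 44.2 CPM in shNC cells (log2 fold change −2.01, SE 0.10). It also fell in RAD21OE cells, to 29.01 ± 1.83 CPM against 77.6 ± 5.02 CPM in EV cells (SD, n = 3 each), a log2 fold change of −1.42. MYLIP, the ubiquitin ligase of lipoprotein receptors, rose with shRAD21 in A549 (log2 fold change 0.56). LPCAT3, a phospholipid acyltransferase, fell with RAD21OE (−0.69) while the receptor gene NR1H2 rose (0.38).

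Of 14 genes of sterol uptake, traffic and esterification, 7 rose and 2 fell in A549 shRAD21 cells, 2 rose and 3 fell in H358 shRAD21 cells, and 4 rose and 3 fell in RAD21OE cells. Of all genes tested, 25.2%, 8.4% and 27.8% were called in the same comparisons. The median log2 fold changes of the list were 0.17, −0.01 and 0.05. VLDLR, a lipoprotein receptor, stood at 56.6, 48.4 and 45.9 CPM in A549 shRAD21 cells against 30.1, 26.7 and 30.6 CPM in shNC cells (log2 fold change 0.79, SE 0.09). In H358 it stood at 26.8, 24.6 and 24.4 CPM with shRAD21 against 41.8, 41.4 and 42.2 CPM with shNC (−0.73, SE 0.09), and the difference between the lines was −1.52 (adjusted p = 3.19e-07). SCARB1, the HDL receptor, moved the opposite way, lower in A549 (−0.29) and higher in H358 (0.65), and differed by 0.94 (adjusted p = 8.8e-06). TMEM97, a sterol-responsive membrane protein, rose in both lines (0.54 and 0.39). With A549 shRAD21 STARD3 fell (−0.30), and with H358 shRAD21 the receptor gene LRP8 fell (−0.31). With RAD21OE GRAMD1B (0.44) and LRP8 (0.37) rose and NPC2 (−0.50) and the lysosomal lipase LIPA (−0.43) fell.

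Of 12 genes that process or degrade the SREBP and INSIG proteins, 3 rose and 2 fell in A549 shRAD21 cells, none was called in H358 (4 had an unadjusted p under 0.05), and 1 rose and 1 fell in RAD21OE cells. The medians were 0.01, 0.03 and 0.10. MBTPS1, the first of the proteases that release SREBP, fell with A549 shRAD21 (log2 fold change −0.38, SE 0.06), as did UFD1 (−0.45), while INSIG2 (0.35) and RNF139 (0.30) rose. With RAD21OE FAF2 rose (0.47) and RNF145 fell (−0.40). Of 10 genes of the isoprenoid branch, 1 rose (ICMT, 0.20) and 1 fell (DHDDS, −0.25) in A549 shRAD21 cells, none was called in H358 (1 had an unadjusted p under 0.05), and 2 rose (FNTB, 0.51, and PDSS1, 0.44) and 1 fell (PGGT1B, −0.50) in RAD21OE cells. The medians were 0.17, −0.00381 and −0.03. Beside the counts of both lists, 25.2%, 8.4% and 27.8% of all genes were called in A549 knockdown, H358 knockdown and overexpression.

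The list of other fatty acid enzymes held 21 genes, 20 of them tested in the knockdown cells and 19 in the overexpressing cells. It had 6 higher and 1 lower in A549 shRAD21 cells, 4 higher and 1 lower in H358 shRAD21 cells, and 1 higher and 2 lower in RAD21OE cells. Of all genes tested, 25.2%, 8.4% and 27.8% were called in these comparisons. The medians of the list were 0.17, 0.13 and −0.04. HSD17B12 and HACD3, which with ELOVL6 carry out the elongation cycle, rose in A549 shRAD21 cells (log2 fold changes 0.66, SE 0.10, and 0.48, SE 0.07). HACD3 fell with RAD21OE (−0.23), as did its relative HACD1 (−0.55). ACACB, the mitochondrial acetyl-CoA carboxylase, fell in A549 shRAD21 cells (−0.49) and rose in H358 shRAD21 cells (0.78, at 5.80, 5.32 and 5.33 CPM against 3.44, 3.31 and 2.81 CPM with shNC), a difference between the lines of 1.27 (adjusted p = 2.48e-05). FADS3 rose in H358 (0.62). MID1IP1, which promotes assembly of acetyl-CoA carboxylase, fell in H358 shRAD21 cells (−0.36) and rose with RAD21OE (0.40).

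Acyl-CoA and glycerolipid genes, 14 tested of 15 in the knockdown and 13 in the overexpression, were split, with 3 higher and 3 lower in A549 shRAD21 cells, 1 and 1 in H358 shRAD21 cells, and 2 higher and 1 lower in RAD21OE cells. The medians were 0.13, 0.07 and 0.02, and 25.2%, 8.4% and 27.8% of all genes tested were called in the same comparisons. ACSL4, which activates polyunsaturated fatty acids, stood at 104, 103 and 66.2 CPM in A549 shRAD21 cells against 46.5, 39.3 and 42.7 CPM in shNC cells (log2 fold change 1.09, SE 0.13). With RAD21OE it fell, at 48.6, 47.8 and 30.0 CPM against 67.3, 65.7 and 66.9 CPM in EV cells (−0.66, SE 0.15). AGPAT3 rose (0.51) and the lipid droplet genes PLIN3 (−0.64) and PNPLA2 (−0.29) fell with A549 shRAD21. DGAT2, which makes triglycerides, rose in H358 shRAD21 cells to 2.89 ± 0.557 CPM against 0.853 ± 0.119 CPM in shNC cells (SD, n = 3 each) and LPIN2 fell (−0.24), and with RAD21OE DGAT2 (0.59) and ACSL1 (0.33) rose.

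Of 18 genes of fatty acid oxidation, 6 rose and 1 fell in A549 shRAD21 cells, none was called in H358 (3 had an unadjusted p under 0.05), and none rose and 5 fell in RAD21OE cells. Among all genes tested, 25.2%, 8.4% and 27.8% were called in these comparisons. No gene of this list was called in H358, or rose with RAD21OE, by DESeq2's Wald test or limma-voom, and the medians were 0.16, −0.06 and −0.08. HADH, a mitochondrial dehydrogenase of the oxidation cycle, stood at 48.0, 54.0 and 49.8 CPM in A549 shRAD21 cells against 29.8, 28.1 and 30.9 CPM in shNC cells (log2 fold change 0.77, SE 0.07). DECR1, which oxidises unsaturated chains, rose too (0.50, SE 0.11), and ACADVL fell (−0.35, SE 0.11). With RAD21OE HADH fell to 18.3 ± 0.573 CPM against 26.2 ± 2.72 CPM in EV cells (SD, n = 3 each), and DECR1 fell by 0.60 on the log2 scale (SE 0.13). Both genes therefore had opposite calls in the 2 A549 experiments.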

How the data were processed

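RNA of 18 libraries was sequenced. Per the labels' protocols, TRIzol was used for extraction and a VAHTS Universal V6 kit for the libraries. The tools in the submitters' processing notes are featureCounts 1.5.0-p3, HISAT2 2.0.5 and fastp, with hg38, and no order is stated. The sources used here do not give whether reads were counted by strand. The authors deposited whole-number read counts per gene in 2 tables of 58735 genes, which equal GENCODE 29 in identifier and coordinates, with 0 count columns unmatched.

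Each table was fitted on its own in R 4.3.3 with edgeR 4.0.16 (filterByExpr, TMM, quasi-likelihood F-test, two-sided, 1 mean per group), with p adjusted by Benjamini-Hochberg over all genes tested. The biological coefficient of variation was 0.0864 and 0.0981. SE is the absolute log2 fold change divided by the square root of F. CPM use TMM-scaled library sizes and are printed per library or as mean ± SD. DESeq2 1.42.0 and limma 3.58.1 served as alternatives, with other filters, offsets and omitted libraries. The fit was tested on simulated data.

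The 31 genes, their classes and the related lists were chosen with earlier results of these data known. All 31 are named. Library values are given for genes called in at least 2 of the 3 RAD21 comparisons or between the lines, and for the 3 of each class with the smallest adjusted p. From related lists, up to 2 risen and 2 fallen genes are named. A gene that meets this rule is not reported here. The values of some other genes were added after they were seen.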

Additional observations from a re-analysis of the deposited data

Results flagged for a closer look

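The response to RAD21 knockdown differed between H358 and A549 for 12 genes, by a test of the difference itself (edgeR quasi-likelihood contrast, H358 minus A549, adjusted over all genes tested). On the log2 scale the difference was −0.66 for HMGCS1, −0.60 for IDI1, −0.92 for MSMO1 and −0.52 for HSD17B7 among the sterol enzymes. It was −0.71 for INSIG1 and −1.14 for STARD4. Among the fatty acid genes it was −0.48 for ACSS2, −0.41 for ACACA, −0.90 for ELOVL6, −0.66 for FADS1, −0.57 for FADS2 and −0.67 for LPIN1. RAD21 was also reduced less in H358, by 0.57 on the log2 scale, and the part of this in the differences was not tested. Single genes were not screened for an outlying library, since each group holds 3.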

How the results depend on the processing

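The fold change of RAD21 kept its direction and call under every alternative run, and 2 counts stayed within 1.5 times. The members higher in A549 knockdown numbered 10 (its 6 libraries alone) to 16 (GC and length offsets) against 13, with 11 under the replicate block and 15 with the offsets added to it. Those lower in the line difference numbered 11 to 13 with a library left out and 17 with GC and length offsets, with or without the block, against 12. Replicate numbers did not pair the libraries, since deviations of same-numbered libraries from their group means correlated between −0.04 and 0.07. With the replicate block, 3 genes fell in H358 knockdown and 2 with overexpression, and with GC and length offsets added to the block 1 rose in H358, 2 fell with overexpression, 1 had a higher response in H358 than in A549, 2955 genes were called in H358, and its class medians differed by 0.0219.

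Without a library, 1 to 6 members fell in A549 knockdown (6 without shRAD21 replicate 3) and 3443 to 8430 genes were called, 2 to 4 fell in H358 and 755 to 874 were called, 4 to 11 rose and 0 to 3 fell with overexpression and 2177 to 5536 were called, and 0 to 5 had a higher response in H358 with 2235 to 7348 called. Over the omissions in A549 knockdown EBP ranged from −0.183 (adjusted p = 0.0236) to 0.0954 and FASN from −0.130 (adjusted p = 0.00481) to 0.103 on the log2 scale, each lowest without shRAD21 replicate 3. In A549 alone 3066 genes were called. In H358 alone 4 members rose, 9 fell and 4473 genes were called. With GC and length offsets 2 members rose in H358, 3227 genes were called there and its class medians differed by 0.0230, 2 fell with overexpression and 1 had a higher response in H358. With no filter 2 fell in A549 knockdown, 1 rose in H358, 2 fell with overexpression and 1 had a higher response in H358, as 1 did with DESeq2's Wald test, limma-voom or a filter of 10 CPM. That filter left 9180 genes called between control lines, where fewer genes are tested. With regulators counted as sterol genes the class medians in H358 differed by 0.0381. For the other changes the cause was not tested. In A549 knockdown CYP51A1, near 7 CPM, had an SE of about 0.20, so small changes were not detectable there. PMVK, at 21.8 CPM in A549 shNC, had an SE of 0.23, so the SE did not follow the level alone.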
